A study of Mus musculus with 4 samples.

Results

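Transcripts of the nuclear-encoded subunits of respiratory complex I and of cytochrome oxidase were followed in sorted cells of the mouse retina. The members were all genes whose symbol is Nduf, 1 of the letters a, b, c, s or v and a number, or Cox with a number from 4 to 8, an optional letter and an optional digit. This pattern gave 51 genes of 21833, of which 36 were Nduf and 15 were Cox genes. It reads symbols alone, though it was set with earlier results of these data known. Each of the 51 was listed on 1 row with an accepted estimate in all 4 libraries. Other spellings, such as Cox4i1 and Ndufab1, fell outside the pattern and are given separately.

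Retinas of mice on the slc:ICR background at postnatal day 12 were dissociated and sorted by Cd73, a surface enzyme encoded by Nt5e that marks rod photoreceptors and their precursors, into a positive (Cd73P) and a negative (Cd73N) fraction. Both fractions were taken from wild-type retina and from Ezh2-cKO retina, which gave 4 libraries with 1 library per group. The Ezh2-cKO mice came from a cross of Ezh2-floxed with DKK3-Cre mice, in which Cre is made in retinal progenitor cells, so that the deletion could reach every cell type that arises from them. Wild-type animals were normal littermates, and the number of retinas in each day 12 library is not given in the sources used here. Values are FPKM, which count the fragments of a gene relative to the length of its exons and to all mapped fragments. A group of 1 library allows no check against replicates, and no p-values are given. Each standard error (SE) comes from the bounds deposited with each FPKM and covers counting error only.

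Complex I takes electrons from NADH and passes them to ubiquinone while it pumps protons across the inner mitochondrial membrane. It is built from a core conserved since bacteria, which holds the flavin and the iron-sulfur clusters, and from many supernumerary subunits around that core. Cytochrome oxidase is the last complex of the chain and hands electrons from cytochrome c to oxygen. Its catalytic subunits are encoded in mitochondrial DNA, and the nuclear subunits measured here surround them, several with isoforms that differ between tissues. Photoreceptors are known for a high demand for oxygen and for mitochondria packed into their inner segments.

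The libraries were checked against their labels. Nt5e was at 0.844 and 0.609 FPKM in Cd73N wild type and Ezh2-cKO, and at 125 and 123 FPKM in Cd73P. Summed FPKM of the rod markers was 1606 in both Cd73N libraries and 23337 and 30474 in the wild-type and Ezh2-cKO Cd73P libraries. Of the 13 rod markers, 12 had an accepted estimate in all 4 libraries, each at 1 FPKM or more in every library. Markers without accepted estimates were left out of this and the following sums. The equal rod sums in Cd73N hide differences between markers. On the scale of log2(FPKM + 1), 6 of the 13 were at least 1.5-fold lower in Cd73N Ezh2-cKO than in Cd73N wild type. Of the others 0 were higher and 7 lay within that range, and 1.71% of all genes were lower. Cone markers summed to 3795 and 5333 FPKM in Cd73N and to 251 and 115 FPKM in Cd73P. Bipolar markers summed to 2196 and 1332 FPKM in Cd73N and to 207 and 67.8 FPKM in Cd73P, and Müller glia markers to 1271 and 5850 FPKM and to 126 and 263 FPKM. Markers of amacrine, ganglion, horizontal, microglial, endothelial and pigment epithelial cells each summed to at most 147 FPKM in any library. Of the defining markers, the ganglion cell factor Pou4f3 was listed at 0 in all 4 libraries, Pou4f2 in wild-type Cd73P and the horizontal cell gene Gja10 in wild-type Cd73N. Ezh2 stood at 14.1 FPKM in wild-type Cd73N cells and 15.9 FPKM in the Cd73N library labelled Ezh2-cKO, and at 5.38 and 3.45 FPKM in Cd73P, so that in Cd73N the transcript level went against the label. Reads of all exons enter this value, which leaves the floxed exon itself unseen. The Y-linked gene Eif2s3y was at 11.3 and 13.1 FPKM in the wild-type libraries and listed at 0 in both libraries labelled Ezh2-cKO, and Xist was at 52.2 and 47.0 FPKM in the former and 240 and 95.6 FPKM in the latter, so that sex and genotype cannot be told apart.

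Most subunit transcripts were abundant in every library. Of the 51 members, 46 had a mean FPKM over the 4 libraries of at least 10, and their median was 192 FPKM in wild-type and 153 FPKM in Ezh2-cKO Cd73N cells, against 117 and 115 FPKM in Cd73P cells. Summed over all 51, the members reached 10668, 8526, 7471 and 7755 FPKM in that order. These sums were 2.58%, 2.29%, 2.43% and 2.42% of all FPKM, which lie much closer together than the sums themselves. Of the other 5 members, Cox7a1 and Cox8b had a mean between 1 and 10 FPKM, and Cox6a2, Cox7b2 and Cox8c had a mean under 1 FPKM.

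Ndufa4 had the highest FPKM of the members in each library. This small protein was first purified with complex I and is now assigned to cytochrome oxidase, although its symbol keeps the older name. Its level was 966 FPKM (Cd73N wild type), 791 FPKM (Cd73N Ezh2-cKO), 1103 FPKM (Cd73P wild type) and 1246 FPKM (Cd73P Ezh2-cKO), and it stood between the ranks 17 and 26 among all genes of a library. Both Cd73P values lay above both Cd73N values. Cox6c and Cox8a, transmembrane subunits of cytochrome oxidase, came next by mean FPKM, though not in every library or by the midpoint of the bounds. In wild-type Cd73N the FPKM was 1.68 times that midpoint for Ndufa4 and 0.993 times for Ndufv3. By the midpoint Ndufv3 was therefore above Ndufa4 in that library, with lower bounds of 645 and 560 FPKM. Cox6c was at 633, 513, 585 and 528 FPKM in the same order of libraries. Cox8a was at 664, 584, 438 and 379 FPKM, with both Cd73N values above both Cd73P values. Among the core subunits of complex I the levels were lower. Ndufs1, which carries iron-sulfur clusters, stood at 48.9, 43.6, 44.7 and 40.3 FPKM.

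**Figure D1:**
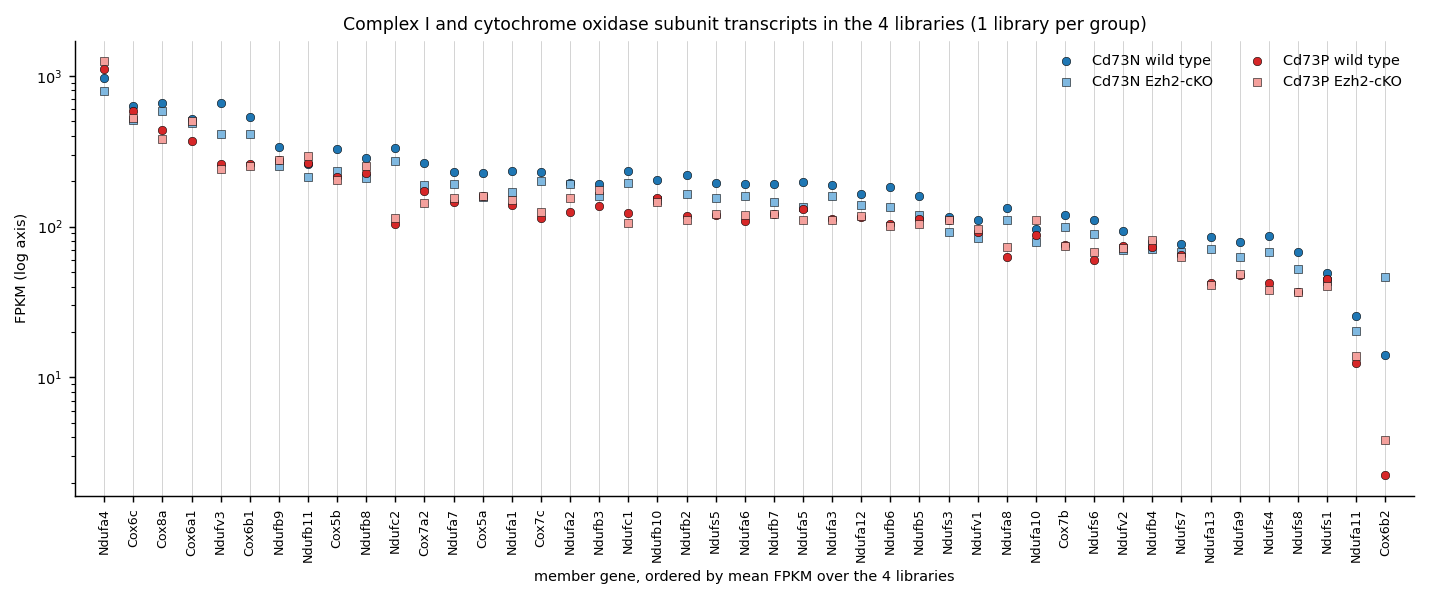
FPKM on a log axis of 45 members with a mean of at least 10, ordered by that mean, with 1 point per library. Ndufa4 has the highest FPKM in each library, at 791 to 1246, and Cox6b2, the last gene, spreads from 2.26 to 46.4 FPKM.

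Levels of different genes have to be compared with care here. In 39 or 40 of the 51 members per library the FPKM lay above its own upper bound, and for the 46 abundant members the ratio of FPKM to the midpoint of its bounds differed between libraries by a factor of at most 1.02. For Ndufa3, with a median transcript length of 350 bases, the FPKM was 2.29 times the midpoint of its bounds, and for Ndufs1, with 2790 bases (median over its transcripts), it was 0.99 times. Across the 46 members the log2 FPKM and the log2 midpoint had a Pearson r of 0.97 in Cd73N wild type, which describes genes of 1 library. Ratios between libraries of these 46 are hardly touched by it. For the low genes Cox7a1 and Cox8b the factor ran from 1.42 to 1.86 and from 1.2 to 1.87 between libraries, so that their ratios depend on which value is used.

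The next comparison asks how transcripts of rods differ from those of the remaining retinal cells. In wild type, 27 of the 51 members were at least 1.5-fold lower in Cd73P than in Cd73N on the scale of log2(FPKM + 1), 1 was higher and 23 lay within that range. Of all genes, 27.9% were lower and 9.07% were higher by the same limit. Among genes with a mean FPKM of at least 50, which are closer to the members in level, 58.7% were lower and 17.0% were higher. The median log2 ratio of the members was -0.60, beside -0.05 over all genes and -0.74 over the abundant genes. The share of members that were lower was therefore above that of all genes and close to that of abundant genes. FPKM was not scaled between libraries, and the values moved with the scaling. The median ratio of genes measured in both libraries was -0.34 on the log2 scale, and after this shift was removed the median of the members was -0.26 with 9 members lower. Scaled instead to cytosolic ribosomal protein genes, whose own median was -0.96, the median of the members turned to 0.36 with 2 lower. In bulk samples fewer cells of a type and less RNA per cell cannot be told apart, and the rod marker sums given above differ between the fractions. Their part in these ratios was not tested.

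In the libraries labelled Ezh2-cKO the same comparison gave 11 members lower and 3 higher, with 37 within 1.5-fold, beside 29.1% of all genes lower and 8.41% higher. Of genes with a mean FPKM of at least 50, 46.2% were lower and 19.1% higher. The members had a median log2 ratio of -0.28, all genes -0.09 and genes with a mean FPKM of at least 50 -0.52. The members' median was 0.057 after scaling by the upper quartile and 0.43 after scaling to ribosomal protein genes. Cox8b and Ndufa4 were among the higher members. No library is shared between the wild-type and the Ezh2-cKO ratios, and over the 46 abundant members the ratios had a Pearson r of 0.926 and a Spearman rho of 0.931. These are correlations across genes, which are not independent replicates, and read sharing between gene copies and transcript length are common to both ratios.

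**Figure D2:**
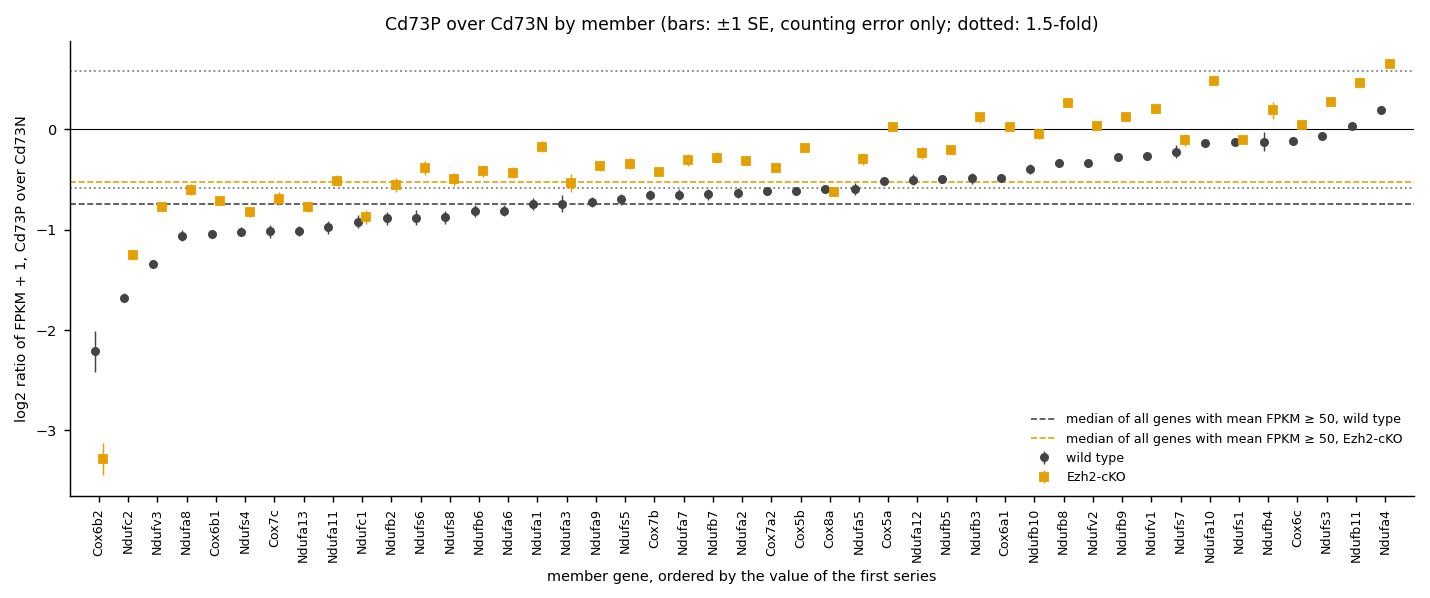
Log2 ratio of FPKM + 1, Cd73P over Cd73N, for 45 members in wild type (circles) and Ezh2-cKO (squares), with bars of 1 SE from counting error and dotted lines at 1.5-fold. Ndufa4 lies at the upper end and Cox6b2, Ndufc2 and Ndufv3 at the lower end in wild type. The median over all 51 members, -0.60 and -0.28, turns positive when libraries are scaled to ribosomal protein genes.

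The members did not move as a block, and scaling a library shifts all abundant members alike, so that the differences among them hardly depend on it. The 7 core subunits of complex I had a median of -0.22 in wild type, again as log2 of Cd73P against Cd73N, with quartiles at -0.30 and -0.10, and 1 of the 7 was lower by 1.5-fold. The 12 Ndufa members without Ndufa4, supernumerary subunits spread over the complex, had a median of -0.73 with 10 of 12 lower. The 10 Ndufb members, which sit mostly in the membrane arm, lay between these at -0.44 with 3 of 10 lower. The supernumerary subunits Ndufs4, Ndufs5 and Ndufs6 were all lower, at a median of -0.88. For the 10 cytochrome oxidase members with a mean FPKM of at least 10, the median was -0.61 with 7 of 10 lower. In Ezh2-cKO the medians of these 5 groups were 0.03, -0.34, 0.04, -0.38 and -0.40 in the same order. For comparison, 27.9% of all genes and 58.7% of genes with a mean FPKM of at least 50 were lower in wild type. The median of these abundant genes was -0.74 in wild type and -0.52 in Ezh2-cKO. In wild type the Ndufa members without Ndufa4 thus lay close to abundant genes as a whole. Over all members the log2 ratio had a weak relation to log2 transcript length, with a Pearson r of 0.15 in wild type and 0.126 in Ezh2-cKO over 46 genes.

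Among the abundant members with the highest wild-type ratios were Ndufa4, Ndufb11, Ndufs3 and Cox6c. As a share of the summed FPKM of the 51 members, which no scaling of a library alters, Ndufa4 held 9.05% in Cd73N and 14.8% in Cd73P of wild type, and 9.28% and 16.1% in Ezh2-cKO. Its log2 ratios were 0.19 and 0.65 with SEs of 0.024 and 0.023. Ndufb11, an X-linked membrane-arm subunit, was at 260, 215, 266 and 295 FPKM. Ndufs3, a core subunit of the peripheral arm, was at 116, 91.6, 111 and 111 FPKM, so that its wild-type fractions lay at a log2 ratio of -0.07 (SE 0.043). The log2 ratio of Cox6c was -0.11 in wild type and 0.04 in Ezh2-cKO.

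At the other end stood Cox6b2, Ndufc2, Ndufv3, Ndufa8 and Cox6b1. Ndufc2 (mm9 chromosome 7, 104548513 to 104556310, plus strand), a supernumerary subunit of the membrane arm, measured 334 and 272 FPKM in the wild-type and Ezh2-cKO Cd73N cells, against 104 and 113 FPKM in Cd73P cells. The fractions did not overlap. The Cd73P values were 3.20-fold lower in wild type and 2.39-fold lower in Ezh2-cKO, with log2 ratios of -1.68 and -1.25 and SEs of 0.046 and 0.045. The share of Ndufc2 in the summed FPKM of the members was 3.13% and 3.18% in Cd73N and 1.39% and 1.46% in Cd73P.

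Ndufv3 (chromosome 17, 31657060 to 31668270, plus strand), a small accessory subunit at the tip of the peripheral arm that holds the flavin, measured 660 and 412 FPKM in Cd73N and 260 and 240 FPKM in Cd73P, wild type first. Between fractions its log2 ratio was -1.34 in wild type and -0.78 in Ezh2-cKO, both with an SE of 0.037. Ndufa8, a subunit on the intermembrane-space side, was at 133, 111, 63.1 and 72.9 FPKM. Cox6b1, which bridges the monomers of the cytochrome oxidase dimer on that side of the membrane, was at 534, 412, 258 and 251 FPKM. For each of these 3 genes both Cd73N values were above both Cd73P values, and the median-ratio, FPKM-sum and upper-quartile scalings left all their Cd73P over Cd73N ratios below 0. Scaling to ribosomal protein genes left those of Ndufv3 below 0 but brought the Ezh2-cKO ratios of Ndufa8 and Cox6b1 to 0.13 and 0.03.

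The genotype comparison asks which transcripts differ when Ezh2, a methyltransferase of the Polycomb complex PRC2, is deleted from retinal cells. In Cd73N, 1 of the 51 members was at least 1.5-fold lower in Ezh2-cKO, 2 were higher and 48 lay within that range, beside 1.71% of all genes lower and 7.19% higher (5.61% and 3.99% of genes with a mean FPKM of at least 50). Of the 46 abundant members 45 had a log2 ratio below 0, and in 43 (93.5%) it was more than 2 SEs of counting error below 0. The same held for 78.5% of genes with a mean FPKM of at least 50 and for 57.8% of those with a mean of at least 10. After scaling to ribosomal protein genes 4 members were more than 2 SEs below 0 and 23 above. The median over all 51 was -0.30, beside 0 over all genes and -0.295 over genes with a mean FPKM of at least 50, so the members lay where abundant genes as a whole lay. The median of the members was -0.15 after scaling by the FPKM sum and 0.11 after scaling to ribosomal protein genes, whose own median was -0.40. The marker sums in this comparison went from 1271 to 5850 FPKM for Müller glia, from 2196 to 1332 FPKM for bipolar cells and from 3795 to 5333 FPKM for cones. Their part in the members' ratios was not tested.

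In Cd73P the members were centred near 0. A single member, Cox8b, was higher by 1.5-fold and a single member, Cox7a1, was lower, with 49 within that range, beside 2.27% of all genes higher and 2.38% lower (3.4% and 6.13% of genes with a mean FPKM of at least 50). The median log2 ratio was 0.01, with -0.06 over genes with a mean FPKM of at least 50. Of the 46 abundant members 25 had a ratio above 0 and 21 below 0, and 14 were more than 2 SEs above and 9 more than 2 SEs below. The log2 ratio in Cd73P was higher than that in Cd73N by more than 2 SEs of counting error in 40 of the 46 (87%), lower in 1 and within 2 SEs in 5, beside 64.6% of genes with a mean FPKM of at least 50 higher. The 40 became 24 with FPKM-sum scaling, beside 33.6%, and 17 with ribosomal scaling, beside 26.1%. Whether genotype ratios differ between the fractions could not be tested without replicates. The median of all members in Cd73P was 0.16 after scaling to ribosomal protein genes.

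**Figure D3:**
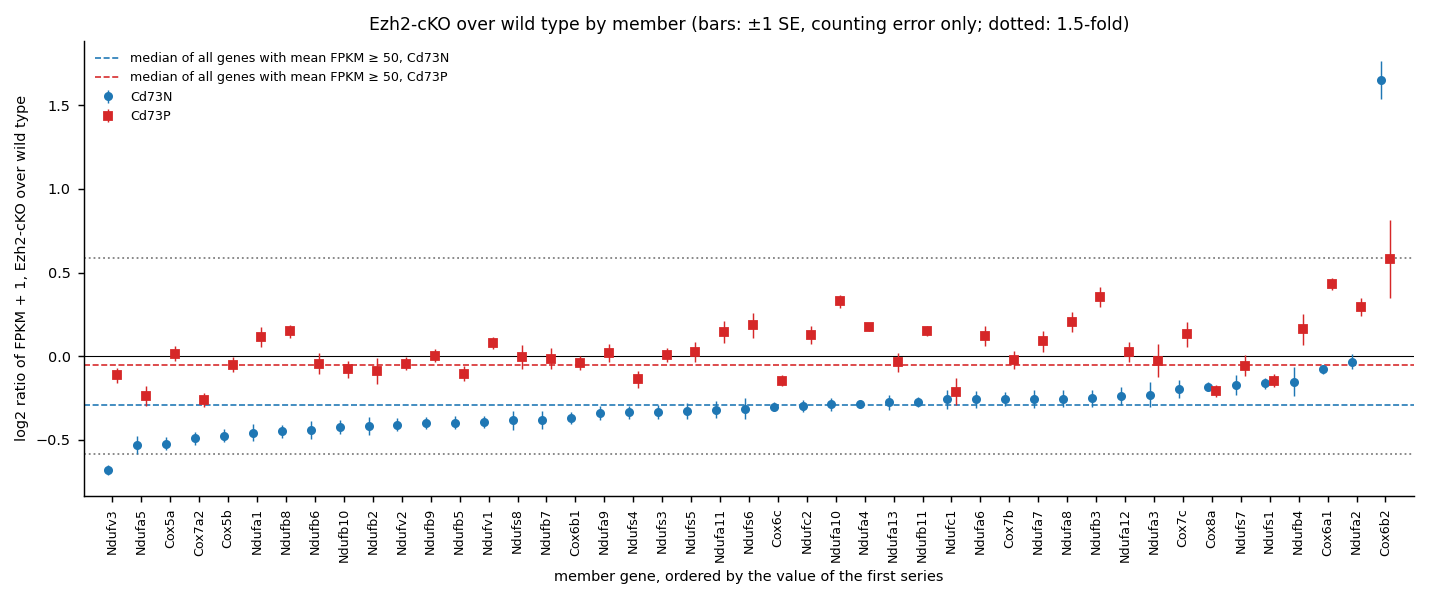
Log2 ratio of FPKM + 1, Ezh2-cKO over wild type, for 45 members in Cd73N (circles) and Cd73P (squares), with bars of 1 SE from counting error and dotted lines at 1.5-fold. In Cd73N 44 of the 45 drawn lie below 0, near the dashed median of abundant genes at -0.295, with Cox6b2 at 1.65 and Ndufv3 at -0.68 standing apart; the median over all members in Cd73N is above 0 when libraries are scaled to ribosomal protein genes.

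Ndufv3 was the member that was lower in Cd73N. It went from 660 FPKM in wild type to 412 FPKM in Ezh2-cKO, a difference of -37.6%, at a log2 ratio of -0.68 (SE 0.031), whereas in Cd73P it stood at 260 and 240 FPKM, a log2 ratio of -0.12 (SE 0.043). Scaling by the FPKM sum brought the Cd73N ratio to -0.53, within 1.5-fold. The share of Ndufv3 in the summed FPKM of the members was 6.19% in wild type and 4.83% in Ezh2-cKO for Cd73N, and 3.48% and 3.09% for Cd73P. None of its 32-base transcript windows occurred elsewhere in the genome.

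The subunit groups had similar medians within each genotype comparison. In Cd73N the median log2 ratio of Ezh2-cKO over wild type was -0.33 for the 7 core subunits, -0.27 for the 12 Ndufa members without Ndufa4, -0.40 for the 10 Ndufb members, -0.33 for Ndufs4, Ndufs5 and Ndufs6 and -0.28 for the 10 abundant cytochrome oxidase members. In Cd73P these medians were between -0.03 and 0.10.

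The members on chromosome X were looked at for themselves because sex and genotype went together. Ndufa1, a small membrane-arm subunit, was at 232, 169, 138 and 150 FPKM in Cd73N wild type, Cd73N Ezh2-cKO, Cd73P wild type and Cd73P Ezh2-cKO. Cox7b, a transmembrane subunit of cytochrome oxidase, was at 119, 99.3, 75.1 and 73.8 FPKM. The log2 ratios of Ezh2-cKO over wild type for Ndufa1, Ndufb11 and Cox7b were -0.46, -0.27 and -0.26 in Cd73N and 0.11, 0.15 and -0.02 in Cd73P, all inside the range of the autosomal members.

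The largest genotype difference belonged to an isoform gene. Cox6b2 (chromosome 7, 4703396 to 4704696, minus strand) encodes the form of subunit 6b known from testis, while Cox6b1 encodes the form found in most tissues. Cd73N cells held Cox6b2 at 14.1 FPKM in wild type and 46.4 FPKM in Ezh2-cKO, and Cd73P cells at 2.26 and 3.86 FPKM. It was higher in Ezh2-cKO in both fractions and higher in both Cd73N libraries than in either Cd73P library. In Cd73N the log2 ratio of genotypes was 1.65 with an SE of 0.11, which is 3.14-fold on the scale of FPKM + 1, and in Cd73P it was 0.58 with an SE of 0.23, just under the 1.5-fold limit. Of the FPKM of both subunit 6b genes together, Cox6b2 made up 2.57% and 10.1% in the wild-type and Ezh2-cKO libraries of Cd73N, and 0.866% and 1.52% in those of Cd73P. In wild-type Cd73N the FPKM was 1.64 times the midpoint of its bounds for Cox6b1 and 1.0 times for Cox6b2. The size of these shares therefore depends on which value is used. None of the 32-base windows of Cox6b2 was found elsewhere in the genome, whereas 15.2% of those of Cox6b1 were. Müller glia and cone marker sums were higher in the same Cd73N library, as given above, and their part in the Cox6b2 level was not tested.

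The 250 bases before the transcription start are printed for both subunit 6b genes, which share a protein role and differ in pattern, and for Cox6a1, the only matched member that holds both motifs. They are from RefSeq on build GRCm38.p6, read 5′ to 3′ on the gene's own strand, at chr5:115348959-115349208 (Cox6a1), chr7:30626115-30626364 (Cox6b1) and chr7:4753095-4753344 (Cox6b2), each on the minus strand. Capitals mark matches on either strand to the NRF1 motif (GCGCA, any base, then GCGC) or the ETS motif CCGGAAG.
Cox6a1: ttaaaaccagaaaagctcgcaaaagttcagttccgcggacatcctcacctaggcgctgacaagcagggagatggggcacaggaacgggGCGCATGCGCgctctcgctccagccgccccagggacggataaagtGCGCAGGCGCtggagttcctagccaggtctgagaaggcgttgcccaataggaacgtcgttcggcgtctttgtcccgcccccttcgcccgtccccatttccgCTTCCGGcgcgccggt
Cox6b1: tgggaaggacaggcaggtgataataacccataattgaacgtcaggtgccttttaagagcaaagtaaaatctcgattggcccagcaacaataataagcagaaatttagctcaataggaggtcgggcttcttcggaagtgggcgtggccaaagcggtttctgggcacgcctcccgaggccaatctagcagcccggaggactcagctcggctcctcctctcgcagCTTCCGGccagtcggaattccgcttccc
Cox6b2: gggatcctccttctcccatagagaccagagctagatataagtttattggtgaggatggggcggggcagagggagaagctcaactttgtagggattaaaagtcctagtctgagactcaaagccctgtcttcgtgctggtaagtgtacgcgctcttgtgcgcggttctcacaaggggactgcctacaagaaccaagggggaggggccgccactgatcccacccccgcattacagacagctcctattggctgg

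NRF1 and the ETS factor GABP are known activators of respiratory chain genes. Cox6a1 held NRF1 matches at separate places and an ETS match near its start, Cox6b1 held 1 ETS match near its start, and no match to either motif was found in these letters before Cox6b2. The windows had 62.8%, 54.0% and 54.8% G and C and 26, 14 and 8 CpG pairs in the same order. A promoter was matched by symbol for 45 of the 51 members. The NRF1 motif was found in 7 of the 45 (15.6%), beside 4.23% of 27025 gene promoters of the same length. The ETS motif was in 5 (11.1%), beside 7.83%, and the YY1 motif (AA, any base, ATGGC, then GGC) in 0 of 45, beside 0.411%. The end of the ETS motif can overlap the start of the YY1 motif by its letters, and the NRF1 motif can match both strands at 1 place. The median promoter of the members had 56.4% G and C and 14 CpG pairs, and that of all genes had 52.4% and 6. The matches describe letters only.

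For subunit 6a the ubiquitous form Cox6a1 was at 518, 490, 370 and 499 FPKM in Cd73N wild type, Cd73N Ezh2-cKO, Cd73P wild type and Cd73P Ezh2-cKO, so that Cd73P wild type was the low library. Its log2 ratio of genotypes was -0.08 in Cd73N and 0.43 with an SE of 0.034 in Cd73P. The heart and muscle form Cox6a2 lay between 0.048 and 0.16 FPKM. For subunit 7a the widely used form Cox7a2 was at 265, 188, 172 and 144 FPKM. The heart and muscle form Cox7a1 was at 2.37, 4.07, 2.26 and 0.898 FPKM, with log2 ratios of genotypes of 0.59 in Cd73N and -0.78 in Cd73P and SEs of 0.35 and 0.36, so that the former was under 2 SEs from 0. At these levels the counts behind a value are few, and with a pseudocount of 5 neither ratio reached 1.5-fold. From the midpoints of the bounds the ratios were 0.44 and -0.52, also within 1.5-fold.

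Of the minor forms, Cox8b alone was at least 1.5-fold higher in Cd73P without scaling between libraries. Cox8b, the heart and muscle form in mouse, measured 0.536 and 0.784 FPKM in Cd73N and 2.57 and 4.84 FPKM in Cd73P, wild type first, while the ubiquitous Cox8a was at 379 to 664 FPKM. Both Cd73P values of Cox8b exceeded both Cd73N values, with log2 ratios of 1.22 with an SE of 0.34 in wild type and 1.71 with an SE of 0.33 in Ezh2-cKO. Its share of the FPKM of both genes was 0.0807% and 0.134% in Cd73N and 0.583% and 1.26% in Cd73P. These shares too depend on whether FPKM or the midpoint of the bounds is used. From the midpoints of the bounds the log2 ratios of Cd73P over Cd73N were 0.77 and 1.21. With a pseudocount of 5 they were 0.45, within 1.5-fold, and 0.77. In wild type the bounds of Cox8b in the fractions overlapped. The log2 ratio of genotypes in Cd73P was 0.71 with an SE of 0.35, or 0.54 from the midpoints, within 1.5-fold. Of the testis forms, Cox8c was listed at 0 in each library and Cox7b2 at 0 in 3 libraries and at 0.031 FPKM in the Cd73P Ezh2-cKO library.

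**Figure D4:**
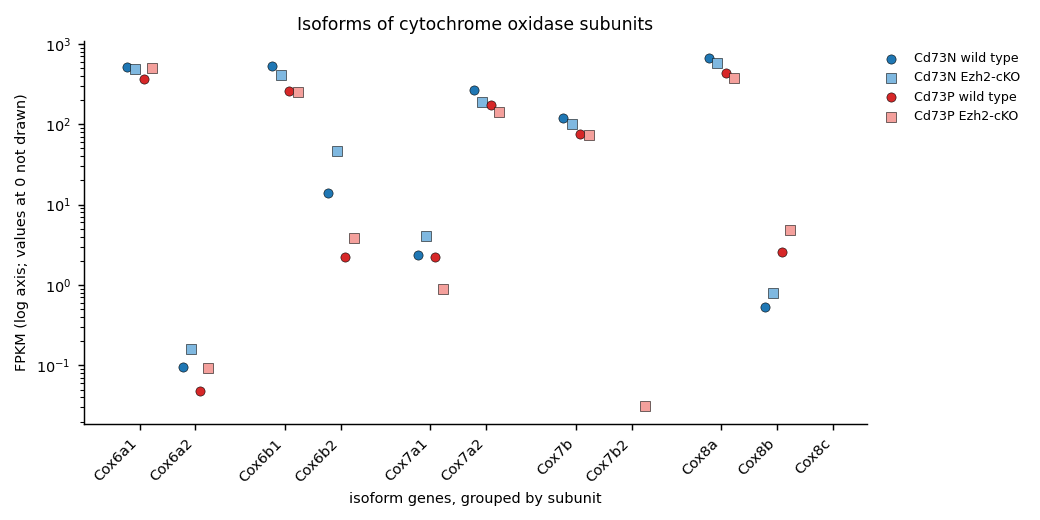
FPKM on a log axis of the cytochrome oxidase isoform genes in the 4 libraries, grouped by subunit, with values listed at 0 not drawn. Cox6b2 reaches 46.4 FPKM in Cd73N Ezh2-cKO and is at 14.1 FPKM or less in the other libraries, and Cox8b lies higher in Cd73P (2.57 and 4.84 FPKM) than in Cd73N (0.536 and 0.784 FPKM).

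Close relatives with other spellings showed some of the same patterns. Cox4i1, the main form of subunit 4, was at 805, 558, 512 and 460 FPKM in Cd73N wild type, Cd73N Ezh2-cKO, Cd73P wild type and Cd73P Ezh2-cKO. Cox4i2, the form of that subunit known for its response to low oxygen, was at 40.8, 94.0, 1.495 and 3.21 FPKM, so that like Cox6b2 it was higher in Ezh2-cKO in both fractions and higher in Cd73N. Ndufab1, the acyl carrier protein of complex I, was at 55.6, 44.8, 36.03 and 32.9 FPKM. Ndufa4l2, a relative of Ndufa4, was at 41.5, 34.3, 2.87 and 2.13 FPKM, opposite in fraction to Ndufa4.

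Other lists of the respiratory chain lay near the members. In the wild-type comparison of Cd73P with Cd73N the median log2 ratio was -0.68 for the 4 complex II subunits with 2 lower, -0.65 for the 10 genes of complex III and cytochrome c with 5 lower, and -0.71 for the 16 ATP synthase genes with 11 lower, and none of these was higher. Complex I assembly factors, of which 9 of 13 were compared, had a median of -0.44 with 3 lower and 0 higher. Cytochrome oxidase assembly factors, 12 of 17 compared, had -0.45 with 4 lower and 1 higher. Mitochondrial ribosomal proteins had -0.69, with 41 of 73 lower and 1 higher. Cytosolic ribosomal proteins had -0.96, with 67 of 77 lower and 1 higher. Of all genes 27.9% were lower and 9.07% higher in this comparison. Among genes with a mean FPKM of at least 50, 58.7% were lower and 17.0% higher. In Ezh2-cKO over wild type in Cd73N, no gene passed 1.5-fold in either direction among complex II, complex III and cytochrome c, ATP synthase, both sets of assembly factors or the mitochondrial ribosomal proteins, and their medians ran from -0.39 to -0.11. All these medians shift with the scaling of the libraries in the same way as those of the members.

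Regulators of mitochondrial biogenesis went in both directions between the fractions. Of 16 such genes 5 were higher and 2 lower in Cd73P of wild type, beside 9.07% of all genes higher and 27.9% lower. Their median was 0.05, with 8 above 0 and 8 below. In Ezh2-cKO 5 were higher and 5 lower, beside 8.41% and 29.1% of all genes. In the genotype comparison 1 was higher and 1 lower in Cd73N, beside 7.19% and 1.71% of all genes. In Cd73P 1 was higher and 0 lower, beside 2.27% and 2.38%. The regulators named next are examples, and none of them was at least 1.5-fold lower in Cd73P than in Cd73N. Esrrb, a nuclear receptor of the estrogen-related family, was at 1.98 and 0.931 FPKM in Cd73N and at 124 and 210 FPKM in Cd73P. Ppargc1a, a coactivator known for driving mitochondrial biogenesis, was at 1.66 and 2.26 FPKM in Cd73N and 7.05 and 8.48 FPKM in Cd73P, and Nrf1 was at 10.7 and 8.70 FPKM and at 16.7 and 18.7 FPKM. Tfam, which packages and transcribes mitochondrial DNA, was at 11.35 and 9.92 FPKM in Cd73N and 11.1 and 7.87 FPKM in Cd73P. Any relation between these regulators and the levels of the members was not tested.

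**Figure D5:**
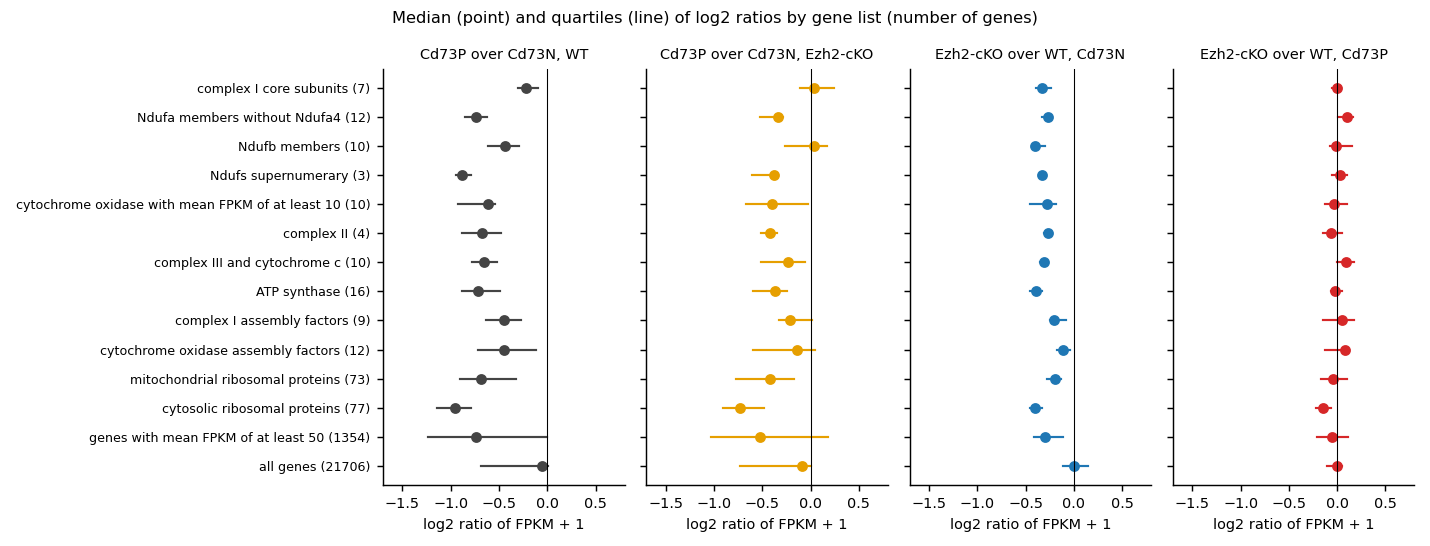
Median (point) and quartiles (line) of the log2 ratio of FPKM + 1 by gene list in the 4 comparisons, with the number of genes in brackets. In wild type the core subunits of complex I lie at -0.22 and the cytosolic ribosomal proteins at -0.96 for Cd73P over Cd73N. Points of lists of abundant genes shift together within a panel when a library is scaled differently. Genes near 0 FPKM, many among all genes, hardly shift under the pseudocount. The members' medians in both fraction panels and in the Cd73N genotype panel turn positive when scaled to ribosomal protein genes.

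Several members share sequence with other places in the genome, so that reads could be split or doubled between copies. The share of a member's 32-base transcript windows found elsewhere was 67.6% for Ndufb2, 66.0% for Cox5b, 55.5% for Ndufs3, 47.1% for Ndufs5, 43.4% for Ndufb4 and 39.9% for Cox6c, and these values are uncertain. It was 19.5% for Ndufa4, 0.153% for Ndufc2 and 0% for Ndufv3 and Ndufa8. Ndufs5 also overlaps BC002163, listed over almost the same bases, at 178, 147, 103 and 110 FPKM. The strand of BC002163 was looked up by symbol alone, so a separate gene on the opposite strand is not established. The library kit does not mark strand, and reads from these entries cannot be told apart.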

How the data were processed

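Poly(A) RNA of sorted retinal cells was sequenced as 36-base single-end reads in 4 libraries. According to the submitters' processing notes and the study's methods, the authors used bcl2fastq 1.8.4, aligned to mm9 with TopHat2 2.0.8b with a maximum of 50 hits per read, and made the deposited FPKM values and their lower and upper bounds with Cufflinks 2.1.1. FPKM was not scaled between libraries, and read totals were not used here, so depth is unknown and the bounds give the only measure of precision.

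Of 23021 rows per table, rows sharing a symbol were summed (234 symbols) and 725 symbols of small RNAs, recognised by name, were dropped, leaving 21833 genes. Genes with an accepted status in both libraries were compared as log2(FPKM + 1), with a pseudocount of 1, which understates ratios of low genes. A gene was counted as higher or lower at 1.5-fold. The SE of a log2 ratio was taken from the bounds, with a width of 4 SEs relative to their midpoint. Positions are the deposited starts plus 1; 50 of 50 members with a single GENCODE gene on the chromosome overlapped it on the same build. Transcript windows of 32 bases were matched to both strands of that genome. The counting was tried on simulated data with 2-fold changes planted in genes of at least 10 FPKM and with counting error as the only noise. That trial covers neither changes near 1.5-fold nor variation between animals. Scripts ran in Python 3.11.15 with pandas 2.3.3, numpy 2.4.6 and matplotlib 3.10.9.

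Members and lists were chosen with earlier results of these data known. Members named with values were those past 1.5-fold in a genotype comparison, the 5 highest and 5 lowest abundant members in the wild-type fraction comparison, the 3 highest by mean FPKM, the cytochrome oxidase isoform pairs, those on chromosome X and those with a mean under 1 FPKM. Other members are given as examples of a group. Not every gene that the rule selects is shown singly or in the plots, though counts and medians include all of them. Alternatives were pseudocounts of 0.1 and 5 or none, scaling by the median ratio, FPKM sum or upper quartile, minimum mean FPKM of 1 or 10, a 2-fold threshold, bounds that do not overlap, all statuses, and leaving out chromosome X or symbols on several rows. Scaling to ribosomal protein genes, leaving out members with over 10% repeated windows and using midpoints of the bounds for low genes were added after seeing the data.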

Additional observations from a re-analysis of the deposited data

Results flagged for a closer look

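For some members the log2 ratio of Ezh2-cKO over wild type had opposite signs in the fractions and differed by at least 1.5-fold between them, and these differences were not tested because each group is 1 library. For Ndufa10, an accessory subunit of the membrane arm, the Cd73P ratio minus the Cd73N ratio was 0.61, from ratios of -0.29 and 0.33. For Ndufb3 and Ndufb8, both membrane-arm subunits, it was 0.61 and 0.60, with Ndufb3 at 191 and 160 FPKM in Cd73N and 136 and 174 FPKM in Cd73P. Ndufa10, Ndufb3 and Ndufb8 were chosen after their values were seen. With FPKM-sum scaling the differences were 0.41, 0.40 and 0.39, under 1.5-fold, and ribosomal scaling brought them to 0.36, 0.35 and 0.34 with the Cd73N ratios of Ndufa10 and Ndufb3 above 0. For Cox7a1 it was -1.37 with an SE of 0.50, at levels of 0.898 to 4.07 FPKM.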

How the results depend on the processing

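Counts and medians of the fraction comparisons moved with the scaling of libraries, and genotype counts also with the treatment of low values and the threshold. For Cd73P over Cd73N in wild type, the 27 lower members became 9 with median-ratio scaling, 8 with FPKM-sum scaling, 9 with upper-quartile scaling, 2 with ribosomal scaling, 8 at a 2-fold threshold and 15 without members holding repeated windows. The 1 higher member became 3 with the FPKM sum and 16 with ribosomal scaling, and 0 with a pseudocount of 5, no pseudocount, a mean FPKM of at least 10 or bounds that do not overlap. The median of -0.60 became -0.26 (median ratio), -0.17 (FPKM sum), -0.26 (upper quartile) and 0.36 (ribosomal). In Ezh2-cKO, the 11 lower became 4, 5, 3 and 2 with these 4 scalings, 3 at 2-fold and 7 without repeated windows; the 3 higher became 5, 5, 7 and 18, and 1 at 2-fold; the median of -0.28 became -0.031, -0.065, 0.057 and 0.43. For genotype in Cd73N, the 2 higher became 1 with a pseudocount of 5, a mean FPKM of at least 10, 2-fold or bounds that do not overlap. The 1 lower, Ndufv3, became 0 with the FPKM sum, ribosomal scaling or 2-fold, and the median of -0.30 became -0.15 and 0.11 with the first 2 of these. In Cd73P, the 1 higher became 2 with a pseudocount of 0.1, none, median-ratio, upper-quartile or ribosomal scaling, and 0 with a pseudocount of 5, a mean FPKM of at least 10, 2-fold or bounds that do not overlap; the 1 lower became 0 with a pseudocount of 5, none, a mean FPKM of at least 10, 2-fold or such bounds; the median of 0.01 became 0.16 with ribosomal scaling. Ribosomal scaling removes the ribosomal genes' own shift by construction; the cause of the other changes was not tested. The other 117 recomputed counts and medians stayed within 1.5 times (counts) or 2 SEs of counting error (medians). Of the ratios of single members and medians of each complex, 366 stayed within 2 SEs and 145 moved further, with no ratio past 1.5-fold changing sign. Ribosomal scaling was left out of that tally, and it did turn some such ratios positive. In wild-type Cd73P over Cd73N, Ndufa1 went from -0.74 to 0.25 and Cox8a from -0.60 to 0.40, whereas Ndufc2 stayed below 0 at -0.68. Members were single rows with accepted status, so keeping all statuses or leaving out symbols on several rows could change nothing. Both alternatives are counted among the 117. The ratios of Cox8c, listed at 0 in each library, could not change either and are counted among the 366. No paired analysis was possible because each group is 1 library. Depth is unknown, and low isoforms rest on few reads.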
